A study of Mus musculus with 18 samples.

Results

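The ligand-gated ion channel receptors of cultured mouse sensory neurons were described gene by gene, across both genotypes and all culture times. Members were taken by gene symbol: GABA-A, glycine, AMPA, kainate, NMDA, serotonin type 3, nicotinic acetylcholine and P2X receptor genes, with the glutamate receptor-associated gene Grina left out. The rule found 58 of the 17198 genes in the table. They comprised 17 GABA-A receptor genes, 4 glycine receptor genes, 2 serotonin receptor genes, 11 nicotinic genes, 4 AMPA genes, 5 kainate genes, 7 NMDA genes, 7 P2X genes and Grin1os, an antisense transcript that overlaps Grin1. Of the 58, 57 were annotated as protein-coding.

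Neurons of the dorsal root ganglion (DRG), which hold the cell bodies of the primary sensory axons, were grown in culture and their total RNA was sequenced after 12, 24 or 48 h. The cultures came from wild-type mice (WT) or from Dynlrb1(tm1a/+) heterozygotes (HET), which carry 1 tm1a allele of Dynlrb1, a light chain of the cytoplasmic dynein motor that carries cargo from axon to cell body. Each of the 6 groups held 3 biological replicates. Their numbers are 1, 2 and 5 for the earlier times and 1, 2 and 3 for 48 h, and values are given in that order. Nothing in the labels ties cultures to single animals, so a p-value measures the spread between cultures, and no label gives the animals' age. Levels within a gene are normalized counts, as the authors scaled them; levels between genes are FPKM (fragments per kilobase of gene, scaled to library size), which corrects for gene length. Changes are log2 differences of (normalized count + 1), which understates the change of low genes, and a gene passed the test at a limma adjusted p (Benjamini-Hochberg, over all 17198 genes) under 0.05.

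Each of these receptors is an ion channel that opens when a transmitter binds it. GABA-A and glycine receptors are pentamers that pass chloride. Nicotinic and serotonin type 3 receptors are pentamers that pass cations. AMPA, kainate and NMDA receptors are glutamate-gated tetramers, and P2X receptors are ATP-gated trimers. In DRG neurons GABA depolarizes the cell and its central terminal, kainate receptors built on Grik1 and P2X receptors built on P2rx3 are classic features of small-diameter neurons, and the subunit makeup of each receptor sets its affinity, ion selectivity and kinetics.

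The targeted gene separated the genotypes at every time. Dynlrb1 read between 5229 and 6674 normalized counts in the 9 WT cultures and between 2716 and 4087 in the 9 HET cultures. All 8 neuron markers were measured, and their summed FPKM lay between 3751 and 4816 in all cultures. The 12 sensory neuron markers summed to between 2987 and 3351 in WT at 12 h and between 2395 and 2996 in WT at 48 h. Between the same groups the 7 fibroblast markers went from 43.3-92.9 to 114-165 FPKM, the 11 glial markers from 545-695 to 474-500, the 5 endothelial markers from 52.6-69.6 to 24.1-34.5, and 7 measured neutrophil and red cell markers from 8.51-250.3 to 3.98-5.41. These sums do not show uniform shifts. In WT from 12 to 48 h 2 sensory neuron markers passed as higher and 5 as lower, and 2 glial markers as higher and 3 as lower. Of all genes 30% were higher and 17.1% lower. Pmp22 (mean FPKM 329) and S100b (192) made up most of the glial sum. The 5 measured spinal cord markers stayed between 0.677 and 1.68 in all cultures. In HET the sensory neuron markers went from 3294-4134 to 2991-3461 and the fibroblast markers from 50.6-76.8 to 91.0-163.5. No marker that was measured was at 0, and the part of these lists in the receptor gene changes was not tested. In bulk RNA, fewer cells of a type and less RNA per cell cannot be told apart.

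By FPKM, P2rx3 stood at the top, at 112 ± 15.1 (SD, n = 18 cultures). Grik1 followed at 62.5 ± 35.2, Htr3a at 56.2 ± 16.3 and Glrb at 45.1 ± 5.41. The spreads of Grik1 and Htr3a overlapped each other and that of Glrb. These means and SDs pool both genotypes and all times, and the order varied between groups. In HET at 12 h the mean of Grik1 (115.7) was above that of P2rx3 (103.3). In WT at 48 h Glrb (44.7) was above Htr3a (37.4) and Grik1 (35.6). Chrnb2 (28.2), Chrna7 (22.5), P2rx4 (21.96), Gabra2 (21.3), Grin1 (19.6) and Grik4 (11.4) were also among the 13 genes with a mean of at least 10 FPKM. Another 22 genes had means from 1 to 10 FPKM and 23 had means below 1. The lowest, with mean normalized counts under 20, were 13 genes: Gabre, Gabrq, Gabrr1, Gabrr2, Gabrr3, Glra1, Glra2, Glra4, Grin1os, Grin2a, Grin2b, Grin3b and P2rx1. The rho-type GABA-A subunits, the 3 glycine alpha subunits and both classic forebrain GluN2 genes were in this low group.

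**Figure D1:**
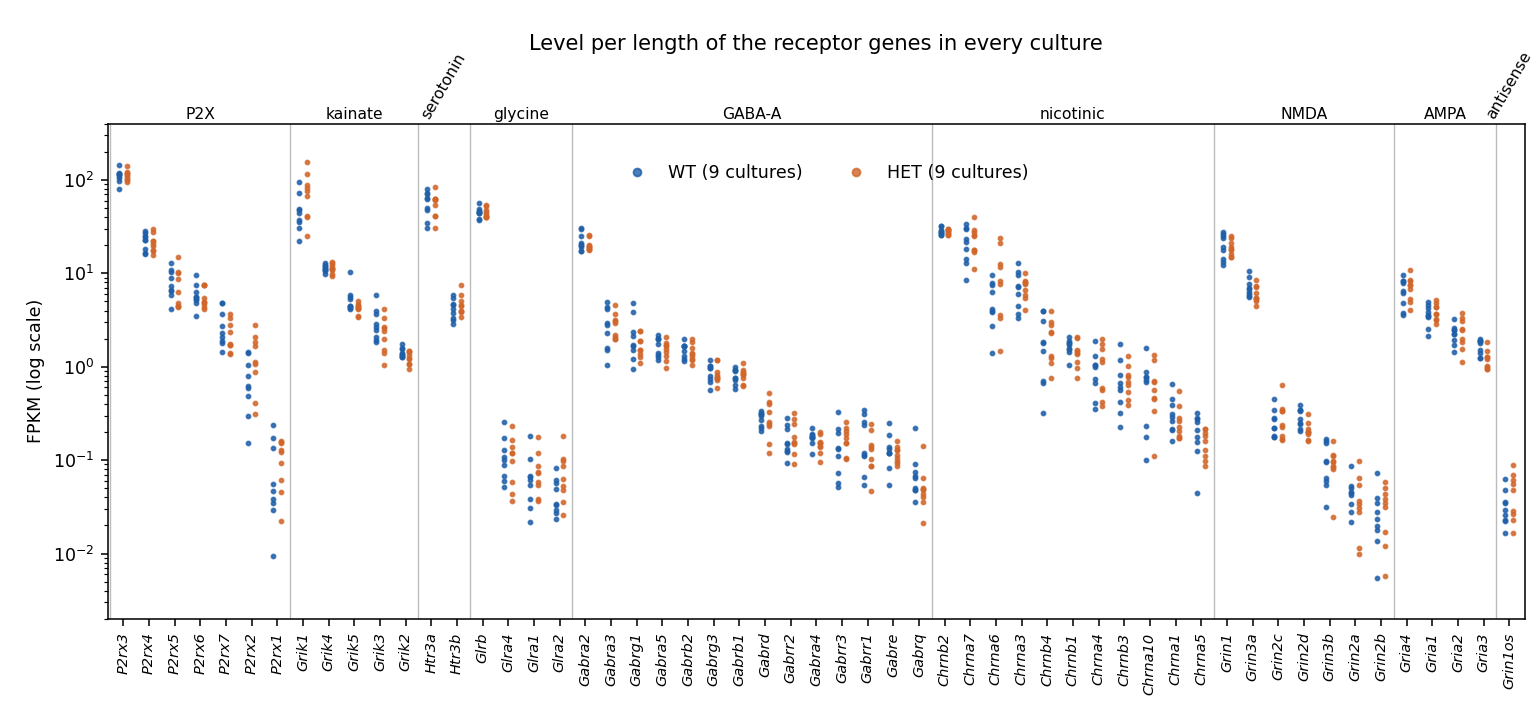
Levels of the receptor genes per length, on a log axis of FPKM, by family, with 1 point per culture, WT and HET side by side. P2rx3, Grik1, Htr3a and Glrb sit highest, and the 23 genes with means below 1 FPKM fall to the bottom of their families.

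More receptor genes passed between times than between genotypes. In WT, 28 of the 58 genes differed between 12 and 48 h, 9 higher and 19 lower at 48 h, against 47.1% of all genes tested (30% higher and 17.1% lower). The members' median change was -0.24, beside 0.11 over all genes. That shift of all genes depended on the scaling: in the authors' other set of per-culture values (plain adjusted values, whose column totals differ between cultures) the medians were -0.34 and 0.01, and 7 members rose and 20 fell. The largest falls among well-measured genes were of Chrnb4, Chrna10, P2rx2, Chrnb3 and Gabra3, and the largest rises were of Gabrg1, Grik3 and P2rx7. Chrna5 had a larger rise at low counts (mean 20.4 over the 18 cultures). By family, 2 GABA-A genes rose and 4 fell, 3 nicotinic genes rose and 5 fell, both serotonin genes fell, 2 AMPA genes fell, 1 kainate gene rose and 2 fell, 1 NMDA gene rose and 1 fell, and 2 P2X genes rose and 3 fell. No glycine receptor gene passed.

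In HET, 11 genes differed between 12 and 48 h, against 14.2% of all genes tested (10.6% higher and 3.62% lower). Grin3a was higher at 48 h, and Chrnb4, Chrna10, Chrna7, Gria4, Htr3a, Gabra3, Gabra5, Htr3b and Grin1 were among those that were lower. All 11 were among the 28 of WT with the same sign, which is 100% of the HET genes and 39.3% of the WT genes. No such overlap is given over all genes, so it is not shown to be particular to receptor genes. The members' median was 0.05 in HET beside 0.10 over all genes, and it was -0.05 beside 0.01 in the plain adjusted values. The HET count rested on single libraries. Without HET 12 h replicate 2, HET 48 h replicate 1 or HET 48 h replicate 2 no receptor gene passed, without HET 12 h replicate 1 it was 5, and without HET 48 h replicate 3 it was 18. No share of all genes is given for these fits, so the swings are not shown to be particular to receptor genes. Of the 28 WT calls, 21 passed with each culture left out in turn.

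**Figure D2:**
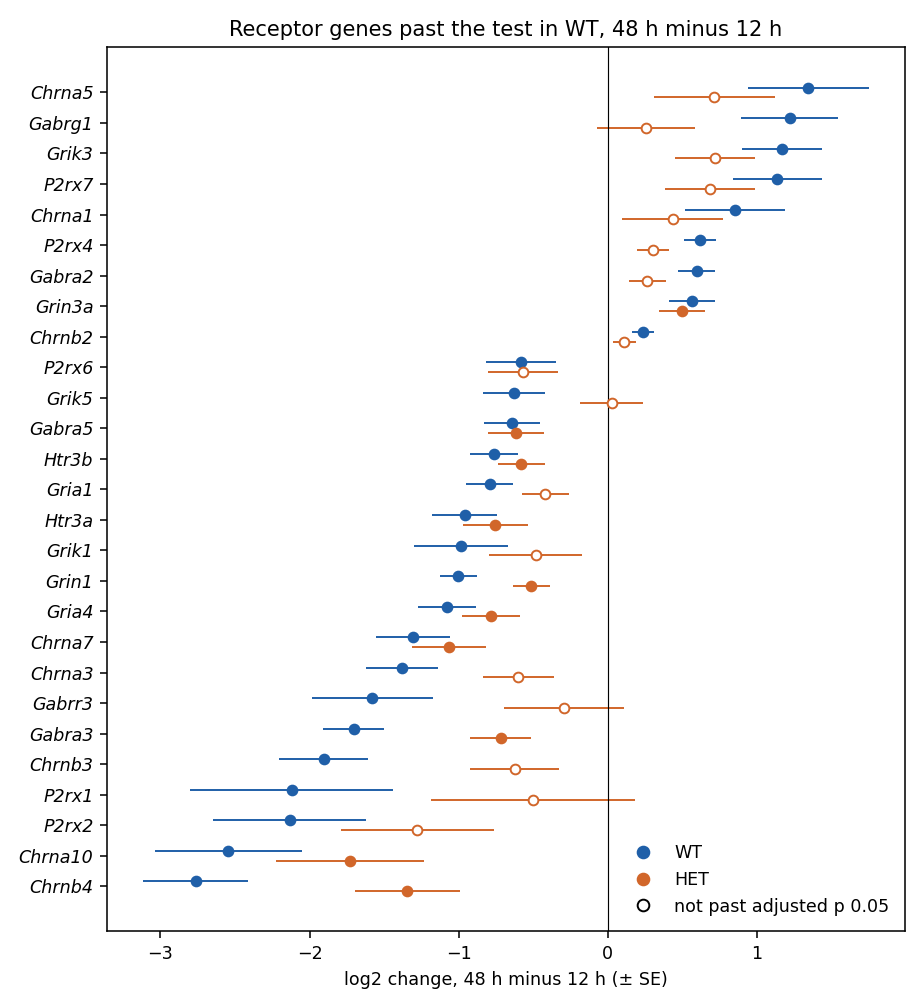
Log2 change from 12 to 48 h, with its standard error, for receptor genes that passed the test in WT, with the HET change beside it. Genes run from the falls of Chrnb4 and Chrna10 to the rises of Chrna5 and Gabrg1, and HET values lie on the same side of 0 for the plotted genes that passed there too.

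The 24 h cultures split these courses. From 12 to 24 h, 1 member passed in WT (P2rx4, higher), against 3.62% of all genes (2.96% higher), with 16 members (27.6%) at an unadjusted p under 0.05, beside 21.4% of all genes. In HET 17 passed, 4 higher and 13 lower, against 18.9% of all genes (13.1% higher and 5.76% lower). P2rx4, Chrnb1, P2rx5 and Grik3 were the 4 that rose. Leaving out HET 12 h replicate 2 reduced the 17 to 6, and leaving out HET 24 h replicate 1 or 5 reduced them to 9. With each culture left out in turn 6 of the 17 always passed, among them Chrna6, Chrnb1, Grik1, P2rx4 and P2rx5. The other 11 were lost at least once, among them Chrna4, Chrnb3, Gabra3, Gabrd, Gria1, Gria2, Grik3, Grin1, Htr3b and P2rx2. The lone WT call was lost without WT 12 h replicate 2 or 5, or without any of the WT 24 h cultures. Comparisons of 48 with 24 h were added after the values were seen. There 7 members rose and 11 fell in WT, against 27.7% of all genes (17.4% higher and 10.3% lower), with 11 passing without WT 24 h replicate 1 and 10 without WT 48 h replicate 1. In HET 3 rose (Chrna6, Grin2c and Gria2) and none fell, against 2.49% of all genes (1.42% higher). None of these 3 passed without HET 24 h replicate 1 or 5 or HET 48 h replicate 1 or 2, and 9 members passed without HET 48 h replicate 3. No share of all genes is given for the fits with a culture left out.

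GABA-A receptors combine alpha, beta and, most often, gamma subunits. Gabra3, an alpha subunit, fell in both genotypes. In WT, Gabra3 read 649, 667 and 772 at 12 h, 429, 455 and 358 at 24 h and 248, 163 and 236 at 48 h. In HET, Gabra3 read 714, 566 and 492 at 12 h, 342, 482 and 309.9 at 24 h and 322, 307 and 451 at 48 h. All 48 h values lay below all 12 h values in each genotype (log2 change -1.71, SE 0.21, limma adjusted p = 3.06e-05 in WT; log2 change -0.72, SE 0.21, limma adjusted p = 0.0315 in HET). Gabra5, whose receptors are largely extrasynaptic, read 245, 219 and 218 at 12 h, 140.4, 195 and 224 at 24 h and 149, 155 and 132 at 48 h in WT. Its HET values were 192, 200.2 and 185 at 12 h, 158, 229 and 173 at 24 h and 128, 144 and 107 at 48 h. Gabra5 fell in WT (log2 change -0.64, SE 0.19, limma adjusted p = 0.00952) and in HET (log2 change -0.61, SE 0.19, limma adjusted p = 0.0383), with no overlap of the 12 and 48 h values. The counting strand is not given, so reads of overlapping genes on opposite strands may be mixed, and Gabra5 is a gene with such an overlap.

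Gabrg1, a gamma subunit of low sensitivity to classic benzodiazepines, went the other way. In WT, Gabrg1 read 340.0, 419 and 189 at 12 h, 333, 237 and 301 at 24 h and 959, 762 and 467 at 48 h. In HET, Gabrg1 read 255, 377 and 301 at 12 h, 269, 297 and 376 at 24 h and 476, 475 and 218 at 48 h. The WT 48 h values lay above every WT value at 12 h (log2 change 1.22, SE 0.33, limma adjusted p = 0.00601), while the HET groups overlapped (log2 change 0.26, SE 0.33, limma adjusted p = 0.622). Gabra2, its neighbour on chromosome 5, was 1869 ± 146 at 12 h and 2826 ± 279 at 48 h in WT (SD, n = 3 each; log2 change 0.59, SE 0.12, limma adjusted p = 9.85e-04), with 1882 ± 72.3 and 2288 ± 410.5 in HET (log2 change 0.27, SE 0.12, limma adjusted p = 0.146). The delta subunit Gabrd was lower at 24 than at 12 h in HET, with overlap of the groups (log2 change -1.11, SE 0.34, limma adjusted p = 0.0317). Of the rho-type subunits, Gabrr3 fell in WT (log2 change -1.58, SE 0.40, limma adjusted p = 0.00446) from a low level of 13.7 ± 5.95 to 3.67 ± 0.664. Gabra4, Gabrb1, Gabrb2, Gabre, Gabrg3, Gabrq, Gabrr1 and Gabrr2 passed no test.

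Glycine receptors need an alpha subunit for the ligand and the beta subunit Glrb for synaptic anchoring by gephyrin. Glrb read 7041, 6060.4 and 4779.9 at 12 h, 5592, 4571 and 5773 at 24 h and 5625, 5495 and 5478 at 48 h in WT and 6481, 6633 and 5282 at 12 h, 4947, 5895 and 5032 at 24 h and 5022, 5639.6 and 4949.6 at 48 h in HET. All groups of a genotype overlapped in time, and no test passed (WT from 12 to 48 h: log2 change -0.09, SE 0.13, limma adjusted p = 0.596). Glra1, Glra2 and Glra4 were among the 13 lowest genes and passed no test.

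Nicotinic receptors gave the widest changes. Chrna3, Chrnb4 and Chrna5, the subunits of ganglionic receptors, lie side by side on chromosome 9, with 2331 bases between Chrna5 (54980880-55007779, plus strand) and Chrna3 (55010111-55026562, minus strand) and 1591 between Chrna3 and Chrnb4 (55028154-55048779, minus strand; GRCm38, GENCODE M21). Chrnb4 had the largest fall, to values under 105 in every WT culture at 48 h. In WT, Chrnb4 read 574, 574 and 450.4 at 12 h, 269, 212 and 260.4 at 24 h and 96.5, 46.7 and 102 at 48 h. In HET, Chrnb4 read 434, 569 and 402 at 12 h, 180.1, 340.0 and 189.6 at 24 h and 111, 161 and 336 at 48 h. Its 48 h values lay below its 12 h values in both genotypes (log2 change -2.76, SE 0.35, limma adjusted p = 3.90e-05 in WT; log2 change -1.35, SE 0.35, limma adjusted p = 0.0237 in HET). Chrna3 read 1687, 1332 and 949 at 12 h, 1236, 925 and 772 at 24 h and 574, 434 and 481 at 48 h in WT. In HET, Chrna3 read 1035, 1304 and 1038 at 12 h, 863, 997 and 769 at 24 h and 527, 714 and 1067 at 48 h. It fell in WT without overlap (log2 change -1.38, SE 0.24, limma adjusted p = 2.81e-04), while the HET values overlapped (log2 change -0.60, SE 0.24, limma adjusted p = 0.0963). Chrna5, an accessory subunit that does not form channels alone, was 14.4 ± 9.52 at 12 h and 32.5 ± 3.73 at 48 h in WT, and 11.1 ± 1.32 and 19.2 ± 5.17 in HET (SD, n = 3 each). It rose in WT (log2 change 1.34, SE 0.41, limma adjusted p = 0.0123), where the call was lost without WT 12 h replicate 5 (log2 change 0.77, limma adjusted p = 0.0754). In HET the 12 and 48 h values did not overlap and the change did not pass (log2 change 0.71, SE 0.41, limma adjusted p = 0.237).

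The DNA before these neighbouring genes varies in base composition. Sequences are shown for 1 pair that moved apart in WT from 12 to 48 h and 1 pair that rose together there. In HET no gene of these pairs passed from 12 to 48 h, and Chrna5 had low counts. Below are the 250 bases before the RefSeq start (GRCm38.p6) of Chrna5 (chr9:54980630-54980879, plus strand, 40% G or C) and Chrna3 (chr9:55026563-55026812, minus strand, 63.2% G or C), and, for the pair on chromosome 5, Gabrg1 (chr5:70842618-70842867, minus strand, 35.6%) and Gabra2 (chr5:71095850-71096099, minus strand, 70%). Each is written 5′ to 3′ on its gene's strand, with GC boxes (GGGCGG or CCGCCC, the core bound by Sp1-type factors) in capitals.
Chrna5: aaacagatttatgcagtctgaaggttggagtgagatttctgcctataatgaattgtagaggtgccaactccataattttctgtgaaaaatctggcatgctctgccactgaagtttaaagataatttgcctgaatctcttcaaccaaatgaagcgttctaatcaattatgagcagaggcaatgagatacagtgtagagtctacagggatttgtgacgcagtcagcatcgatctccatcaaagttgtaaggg
Chrna3: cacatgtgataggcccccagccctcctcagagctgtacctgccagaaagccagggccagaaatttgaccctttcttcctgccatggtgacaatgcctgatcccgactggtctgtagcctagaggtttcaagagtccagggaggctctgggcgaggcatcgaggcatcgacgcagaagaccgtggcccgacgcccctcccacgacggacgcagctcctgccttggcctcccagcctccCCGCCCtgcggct
Gabrg1: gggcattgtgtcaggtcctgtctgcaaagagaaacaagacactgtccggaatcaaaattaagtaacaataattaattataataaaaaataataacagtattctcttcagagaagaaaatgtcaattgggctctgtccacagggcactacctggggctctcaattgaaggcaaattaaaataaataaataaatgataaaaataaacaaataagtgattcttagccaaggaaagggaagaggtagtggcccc
Gabra2: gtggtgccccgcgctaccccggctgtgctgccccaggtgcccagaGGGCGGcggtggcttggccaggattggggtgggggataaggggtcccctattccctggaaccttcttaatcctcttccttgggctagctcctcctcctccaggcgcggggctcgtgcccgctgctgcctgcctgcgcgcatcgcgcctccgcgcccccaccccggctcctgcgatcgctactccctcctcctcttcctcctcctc
Chrna3 and Gabra2 hold 1 GC box each, and Chrna5 and Gabrg1 hold none in these windows. Promoter windows were matched for 41 of the 58 genes, 47 windows in all because some genes have several starts. A GC box was found in 20 of the 47 (42.6%), against 32.7% of all 32851 windows of that length. The cAMP response element TGACGTCA was in 0 of the 47, against 1.55% of all windows. A TATA box (TATAAA, or TTTATA on the other strand) was in 7 of the 47 (14.9%), against 12.4% of all. A match is a run of letters, not a bound site, and the Chrnb4 window is not printed because its RefSeq start lies 235 bases from the GENCODE start.

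Chrna7, the subunit of the homomeric receptor of high calcium permeability, fell in both genotypes. In WT, Chrna7 read 2037, 2916 and 2584 at 12 h, 1862, 1577 and 2657 at 24 h and 739, 1121 and 1226 at 48 h. In HET, Chrna7 read 2389.9, 3503 and 2527 at 12 h, 1486, 2240.2 and 2179 at 24 h and 956, 1560.5 and 1554 at 48 h. The 48 h values lay below the 12 h values in each (log2 change -1.30, SE 0.25, limma adjusted p = 5.36e-04 in WT; log2 change -1.06, SE 0.25, limma adjusted p = 0.0169 in HET). Chrna10, known from the efferent synapse of hair cells, read 167, 91.7 and 72.1 at 12 h, 81.6, 74.7 and 81.3 at 24 h and 10.6, 24.3 and 18.6 at 48 h in WT. The HET cultures read 139, 124 and 59.3 at 12 h, 35.4, 71.2 and 72.8 at 24 h and 11.5, 47.96 and 46.6 at 48 h for Chrna10. It fell without overlap in WT (log2 change -2.54, SE 0.49, limma adjusted p = 6.26e-04) and in HET (log2 change -1.73, SE 0.49, limma adjusted p = 0.0315).

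Chrna6 and Chrnb3, partners in one receptor type, are neighbours on chromosome 8 with 3481 bases between them. In WT as in HET, all their 24 h values lay below all their 12 h values. In WT, Chrna6 read 496, 907 and 1146 at 12 h, 332, 170.4 and 474 at 24 h and 761, 465 and 951 at 48 h. In HET, Chrna6 read 998, 2565 and 1417 at 12 h, 178, 429.6 and 399 at 24 h and 2878, 1517 and 932 at 48 h. It fell from 12 to 24 h in HET (log2 change -2.29, SE 0.48, limma adjusted p = 0.00453) and rose again from 24 to 48 h (log2 change 2.35, SE 0.48, limma adjusted p = 0.0260), and no WT change passed (24 minus 12 h: log2 change -1.42, SE 0.48, limma adjusted p = 0.0974). Chrnb3 read 154, 223 and 332 at 12 h, 128, 115 and 108 at 24 h and 79.97, 43.2 and 60.3 at 48 h in WT. In HET, Chrnb3 read 149, 247 and 192 at 12 h, 84.5, 131 and 73.5 at 24 h and 121, 101 and 157 at 48 h. It fell in WT from 12 to 48 h (log2 change -1.91, SE 0.30, limma adjusted p = 1.38e-04) and in HET from 12 to 24 h (log2 change -1.03, SE 0.30, limma adjusted p = 0.0244), with no overlap in either. Chrna4, which pairs with Chrnb2 in the receptor of highest nicotine affinity, read 190.3, 181 and 349 at 12 h, 65.7, 76.1 and 137 at 24 h and 191, 125 and 241 at 48 h in WT. In HET, Chrna4 read 207, 288 and 222 at 12 h, 70.8, 104 and 78.1 at 24 h and 366, 323 and 108 at 48 h, all 24 h values below all 12 h values. It fell from 12 to 24 h in HET (log2 change -1.50, SE 0.40, limma adjusted p = 0.0167), and the same step in WT did not pass (log2 change -1.37, SE 0.40, limma adjusted p = 0.0664).

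Chrnb2, the nicotinic gene with the highest FPKM, had a small rise in WT. In WT, Chrnb2 read 6129.9, 5767 and 5745 at 12 h, 6111, 5981 and 6569 at 24 h and 6371, 7229 and 7202 at 48 h. In HET, Chrnb2 read 5764, 6314 and 5768 at 12 h, 6613, 5996 and 6449.8 at 24 h and 6611, 6580.4 and 6083 at 48 h. It passed in WT (log2 change 0.24, SE 0.08, limma adjusted p = 0.0171) without overlap of the values, by a call lost without WT 12 h replicate 2 (limma adjusted p = 0.0529) or WT 48 h replicates 2 or 3 (0.0749 and 0.0622). Chrna1 and Chrnb1 are known from the muscle endplate. Chrna1 read 52.1, 55.9 and 37.6 at 12 h, 28.9, 38.4 and 46.5 at 24 h and 117, 81.7 and 69.5 at 48 h in WT and 50.8, 47.4 and 36.8 at 12 h, 40.9, 30.7 and 30.8 at 24 h and 97.96, 68.8 and 32.7 at 48 h in HET. It passed in WT (log2 change 0.85, SE 0.34, limma adjusted p = 0.0468), but not with any 1 of WT 12 h replicates 1, 2 and 5 or WT 48 h replicates 1 and 2 left out, where the change was 0.64 to 0.96. Chrnb1 read 160.4, 93.9 and 128 at 12 h, 139, 166 and 151 at 24 h and 139.6, 184 and 160.5 at 48 h in WT. Its HET values were 101, 67.5 and 87.1 at 12 h, 134, 181 and 188 at 24 h and 126, 130.0 and 123 at 48 h. It rose from 12 to 24 h in HET without overlap (log2 change 0.97, SE 0.21, limma adjusted p = 0.00540). The 5 measured skeletal muscle markers summed to between 1.12 and 1.97 FPKM in all cultures. Their part in these changes was not tested.

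**Figure D3:**
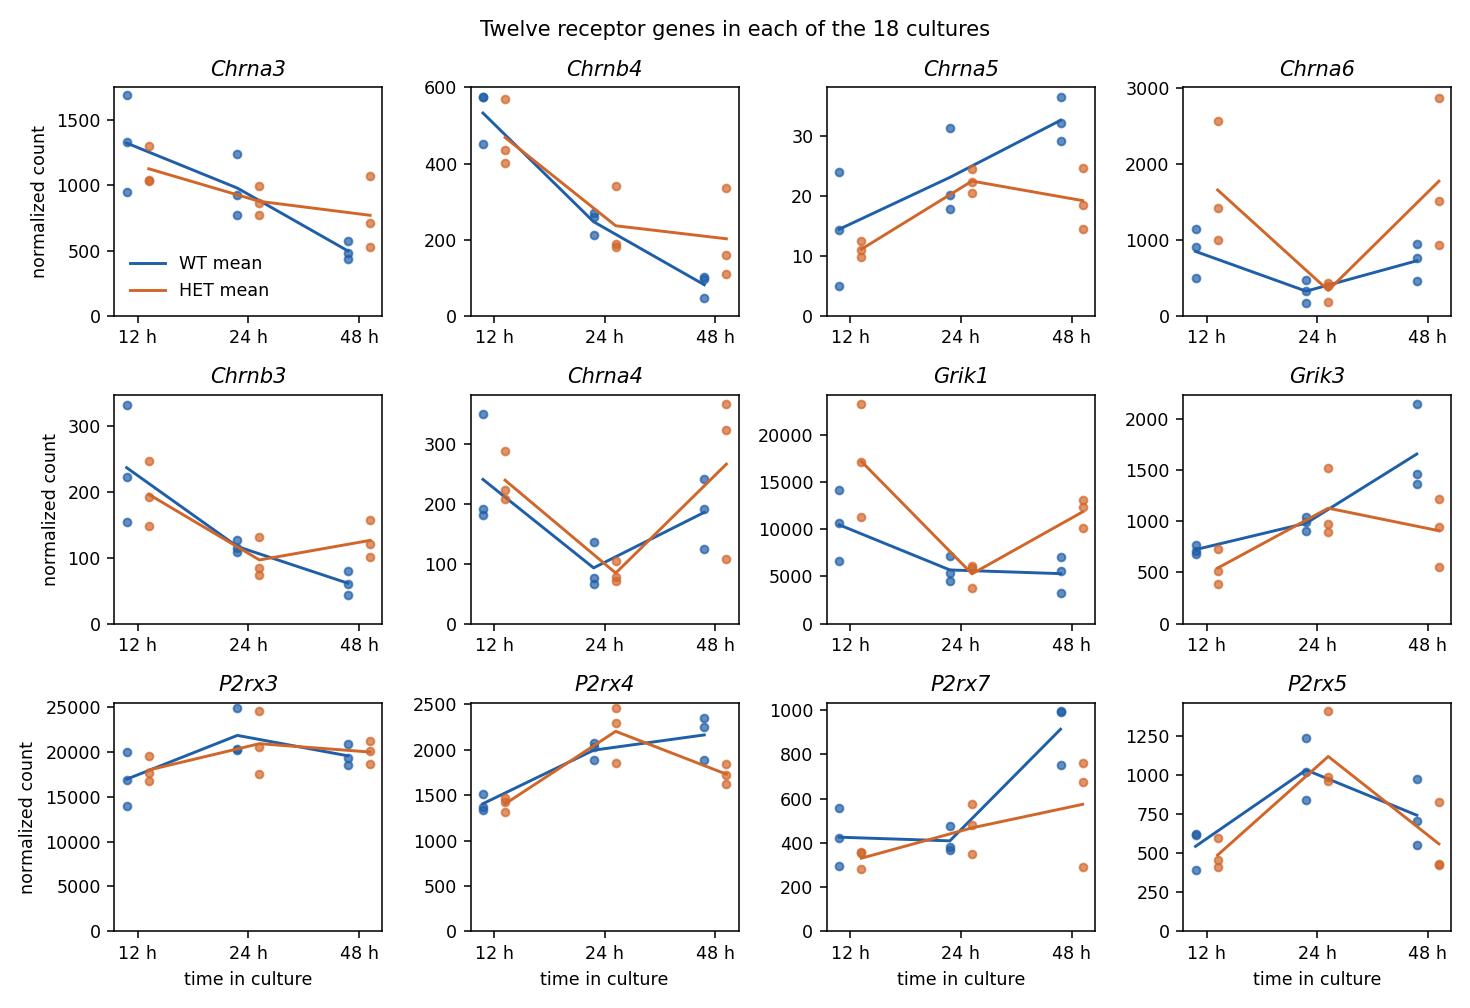
Normalized counts against hours in culture for selected receptor genes, with 1 point per culture and a line through the mean of each genotype. Chrna3 and Chrnb4 fall while Chrna5 rises in WT. The Chrna6 means dip at 24 h in both genotypes and those of Grik1 in HET, and all P2rx3 values lie between 14013 and 24926.

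Both serotonin type 3 genes fell in both genotypes. Htr3a, which can form a channel alone, read 6022, 6920.1 and 5518 at 12 h, 5301, 4295 and 6224 at 24 h and 2604, 2956 and 4065 at 48 h in WT. In HET, Htr3a read 5236, 7281 and 5374 at 12 h, 3484, 5338 and 5299 at 24 h and 2632, 3497 and 4638 at 48 h. Htr3b, which needs Htr3a, read 544, 589 and 464 at 12 h, 411, 375 and 475 at 24 h and 335, 287 and 314 at 48 h in WT. In HET, Htr3b read 506, 758 and 587 at 12 h, 344, 464 and 396 at 24 h and 382, 391 and 450.2 at 48 h. For both genes every 48 h value lay below every 12 h value of its genotype. In WT the test gave a log2 change -0.96, SE 0.22, limma adjusted p = 0.00204 for Htr3a and a log2 change -0.76, SE 0.16, limma adjusted p = 0.00103 for Htr3b. In HET they were -0.75 for Htr3a (limma adjusted p = 0.0331) and -0.58 for Htr3b (limma adjusted p = 0.0275). The genes lie 23908 bases apart on chromosome 9.

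Among AMPA subunits, which carry fast glutamate currents, Gria4 and Gria1 fell. In WT, Gria4 read 1878, 2151 and 1778 at 12 h, 1469, 1404 and 1865 at 24 h and 851, 818 and 1093 at 48 h. In HET, Gria4 read 1888, 2437 and 1942 at 12 h, 1107, 1703 and 1698 at 24 h and 927, 1211 and 1550.2 at 48 h. Its groups did not overlap between 12 and 48 h (log2 change -1.08, SE 0.19, limma adjusted p = 3.67e-04 in WT; log2 change -0.79, SE 0.19, limma adjusted p = 0.0192 in HET). Gria1 read 1006, 1104 and 1178 at 12 h, 829.7, 844 and 910.1 at 24 h and 608, 509 and 814 at 48 h in WT and 1137, 1222 and 1051 at 12 h, 679, 881 and 877 at 24 h and 779, 761 and 1029 at 48 h in HET. It fell in WT (log2 change -0.79, SE 0.16, limma adjusted p = 7.75e-04), and in HET it fell from 12 to 24 h (log2 change -0.49, SE 0.16, limma adjusted p = 0.0383) but did not pass from 12 to 48 h (log2 change -0.42, SE 0.16, limma adjusted p = 0.0809).

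Gria2, the subunit whose edited form keeps AMPA receptors from passing calcium, had its lowest values at 24 h. In WT, Gria2 read 699, 636 and 638 at 12 h, 489, 406 and 554 at 24 h and 917, 712 and 735 at 48 h. In HET, Gria2 read 707, 943 and 727 at 12 h, 322, 517 and 441 at 24 h and 1061, 877 and 564 at 48 h. It fell from 12 to 24 h in HET (log2 change -0.91, SE 0.21, limma adjusted p = 0.00796) and rose from 24 to 48 h in both genotypes (log2 change 0.71, SE 0.21, limma adjusted p = 0.0212 in WT; log2 change 0.95, SE 0.21, limma adjusted p = 0.0331 in HET). Gria3 read 409.7, 324 and 410.1 at 12 h, 269.7, 384 and 304 at 24 h and 424, 408 and 271 at 48 h in WT. In HET, Gria3 read 261, 203 and 212 at 12 h, 220.5, 274 and 275 at 24 h and 319, 399 and 204 at 48 h. It passed no time test, and its 12 h values were lower in HET without overlap.

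Grik1 had the highest FPKM of the kainate receptors and, of the 13 most abundant members, the largest spread over the 18 cultures relative to its mean. In WT, Grik1 read 6611, 10632 and 14104 at 12 h, 5303, 4528 and 7193 at 24 h and 5552, 3284 and 7016 at 48 h. In HET, Grik1 read 11248, 23192 and 17053 at 12 h, 3760.5, 6128 and 5892 at 24 h and 13092, 10076 and 12296 at 48 h. All HET values at 24 h lay below those at 12 h (log2 change -1.68, SE 0.31, limma adjusted p = 0.00265). In WT the 12 and 48 h values overlapped and the fall passed (log2 change -0.98, SE 0.31, limma adjusted p = 0.0160), but not without WT 12 h replicate 5 (log2 change -0.73, limma adjusted p = 0.0881) or WT 48 h replicate 2 (-0.68, 0.107). Grik3 rose. It read 712, 683 and 771 at 12 h, 905, 1045 and 989.7 at 24 h and 1464, 2144 and 1358 at 48 h in WT and 729, 383 and 513 at 12 h, 1517, 896 and 968 at 24 h and 947, 1218 and 555 at 48 h in HET. The 48 h values were above the 12 h values in WT (log2 change 1.17, SE 0.27, limma adjusted p = 0.00222) and the 24 h values above them in HET (log2 change 1.06, SE 0.27, limma adjusted p = 0.0125). Grik5, a high-affinity partner subunit, fell in WT (log2 change -0.63, SE 0.21, limma adjusted p = 0.0204), with the call lost without WT 12 h replicate 5 (-0.32, limma adjusted p = 0.137) or WT 48 h replicate 2 (-0.61, 0.0613). Grik2 and Grik4 passed no test.

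Grin1, the obligatory glycine-binding subunit of NMDA receptors, fell in both genotypes. In WT, Grin1 read 4546, 4085 and 4242 at 12 h, 3132, 3912 and 2869 at 24 h and 2304, 1987 and 2141 at 48 h. In HET, Grin1 read 3886, 4081 and 3399 at 12 h, 3132, 2989 and 2415 at 24 h and 2615, 2437 and 2916 at 48 h. Its 12 and 48 h values were apart in WT as in HET (log2 change -1.002, SE 0.12, limma adjusted p = 3.22e-05 in WT; log2 change -0.51, SE 0.12, limma adjusted p = 0.0175 in HET). The antisense Grin1os overlaps Grin1 by 7706 bases and passed no test, and without a stated counting strand its reads cannot be separated from those of Grin1. Grin3a, a glycine-binding subunit that lowers calcium flux, rose in both: 1969.6 ± 214 to 2922 ± 449 in WT (log2 change 0.56, SE 0.15, limma adjusted p = 0.00696) and 1578 ± 139 to 2262 ± 496 in HET (log2 change 0.50, SE 0.15, limma adjusted p = 0.0419; SD, n = 3 each). The HET call was lost in the plain adjusted values. Grin2d, a glutamate-binding subunit of slow kinetics, read 61.4, 70.7 and 62.8 at 12 h, 45.9, 49.6 and 44.3 at 24 h and 39.1, 37.8 and 62.6 at 48 h in WT. In HET, Grin2d read 34.8, 36.8 and 57.2 at 12 h, 45.2, 36.1 and 29.8 at 24 h and 39.6, 36.7 and 29.4 at 48 h. It passed no test. Grin2c rose from 24 to 48 h in WT (log2 change 0.86, SE 0.27, limma adjusted p = 0.0256) and HET (log2 change 1.29, SE 0.27, limma adjusted p = 0.0270), and Grin2a, Grin2b and Grin3b passed no test.

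Among P2X receptors the most abundant gene passed no test while 5 others passed in WT between 12 and 48 h. P2rx3, the main ATP receptor of nociceptors, read 14013, 16905 and 19939 at 12 h, 20349, 24926 and 20223 at 24 h and 18480.0, 20889 and 19302 at 48 h in WT. In HET, P2rx3 read 17632, 16704 and 19587 at 12 h, 24597, 17554 and 20581 at 24 h and 20135, 18650.1 and 21158 at 48 h. No comparison of it passed (WT from 12 to 48 h: log2 change 0.22, SE 0.13, limma adjusted p = 0.184). P2rx2, its partner in mixed trimers, read 74.5, 103 and 99.05 at 12 h, 57.03, 44.5 and 42.4 at 24 h and 21.1, 10.99 and 34.1 at 48 h in WT and 119.8, 201 and 149.8 at 12 h, 22.1, 79.5 and 76.1 at 24 h and 63.2, 29.3 and 132 at 48 h in HET. P2rx2 fell in WT from 12 to 48 h without overlap (log2 change -2.13, SE 0.51, limma adjusted p = 0.00299) and in HET from 12 to 24 h (log2 change -1.56, SE 0.51, limma adjusted p = 0.0428). The HET call was lost without any 1 of HET 12 h replicates 1, 2 and 5 or HET 24 h replicates 1 and 5. P2rx5 read 625, 615 and 390.4 at 12 h, 1233, 1019.9 and 842 at 24 h and 704, 972 and 551 at 48 h in WT. In HET, P2rx5 read 595, 458 and 409.6 at 12 h, 1411, 984 and 959.5 at 24 h and 429, 424 and 825 at 48 h. It rose from 12 to 24 h in HET (log2 change 1.19, SE 0.27, limma adjusted p = 0.00731), and its WT step had a log2 change of 0.94 (limma adjusted p = 0.0635) with the groups apart.

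P2rx7 and P2rx4, which lie 16111 bases apart on chromosome 5, are expressed by macrophages and microglia as well as by other cells. P2rx7 read 559, 295 and 423 at 12 h, 368, 384 and 476 at 24 h and 989.9, 998 and 754 at 48 h in WT. In HET, P2rx7 read 354, 281 and 357 at 12 h, 348, 575 and 481 at 24 h and 675, 759.6 and 289 at 48 h. It rose in WT without overlap (log2 change 1.14, SE 0.30, limma adjusted p = 0.00543), and the HET change did not pass (log2 change 0.69, SE 0.30, limma adjusted p = 0.127). P2rx4 was 1406 ± 94.2, 1995 ± 97.8 and 2163 ± 243 at 12, 24 and 48 h in WT and 1403 ± 80.1, 2203 ± 313 and 1731 ± 113 in HET (SD, n = 3 each). It rose from 12 to 24 h in WT (log2 change 0.51, SE 0.11, limma adjusted p = 0.0247) and in HET (log2 change 0.64, SE 0.11, limma adjusted p = 0.00186), and from 12 to 48 h in WT (log2 change 0.62, SE 0.11, limma adjusted p = 3.30e-04). Of 7 macrophage markers 6 were measured, and their summed FPKM was 17.5-24.7, 34.0-48.7 and 42.1-82.2 at 12, 24 and 48 h in WT and 15.4-21.9, 36.6-66.7 and 25.1-37.9 in HET. From 12 to 48 h in WT, 2 of these 6 rose and 2 fell. Their part in the P2rx4 and P2rx7 values was not tested. P2rx1 and P2rx6 fell in WT (log2 change -2.12, SE 0.68, limma adjusted p = 0.0174 and log2 change -0.58, SE 0.23, limma adjusted p = 0.0498). The call of P2rx1 was lost without WT 12 h replicate 1 or 5 or WT 48 h replicate 2, and that of P2rx6, whose values overlapped, without WT 12 h replicate 1 or 2 or WT 48 h replicate 2 or 3.

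The mix of subunits within a family was described by each gene's share of the family's summed FPKM, with no test. Among GABA-A alpha subunits Gabra2 held 45.1% ± 1.84 in WT at 12 h and 63.5% ± 2.49 at 48 h (SD, n = 3 each), and Gabra3 held 10.8% ± 1.48 and 3.13% ± 0.752. In HET at 48 h Gabra2 held 56.4% ± 2.67 and Gabra3 5.92% ± 2.25. Chrnb4 held 11.3% ± 1.38 of the nicotinic beta RNA in WT at 12 h and 1.69% ± 0.668 at 48 h, and in HET 10.1% ± 1.24 and 4.36% ± 2.61. Gria2 held 13.4% ± 1.04 of AMPA RNA in WT at 12 h and 24.7% ± 3.31 at 48 h, as Gria4 went from 49.6% ± 3.43 to 36.1% ± 3.65. Grik1 held 61.2% ± 10.2 of kainate RNA in WT at 48 h and 79.6% ± 2.99 in HET. The summed kainate FPKM averaged 92.9, 58.5 and 56.9 in WT at 12, 24 and 48 h and 135, 53.9 and 99.9 in HET.

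**Figure D4:**
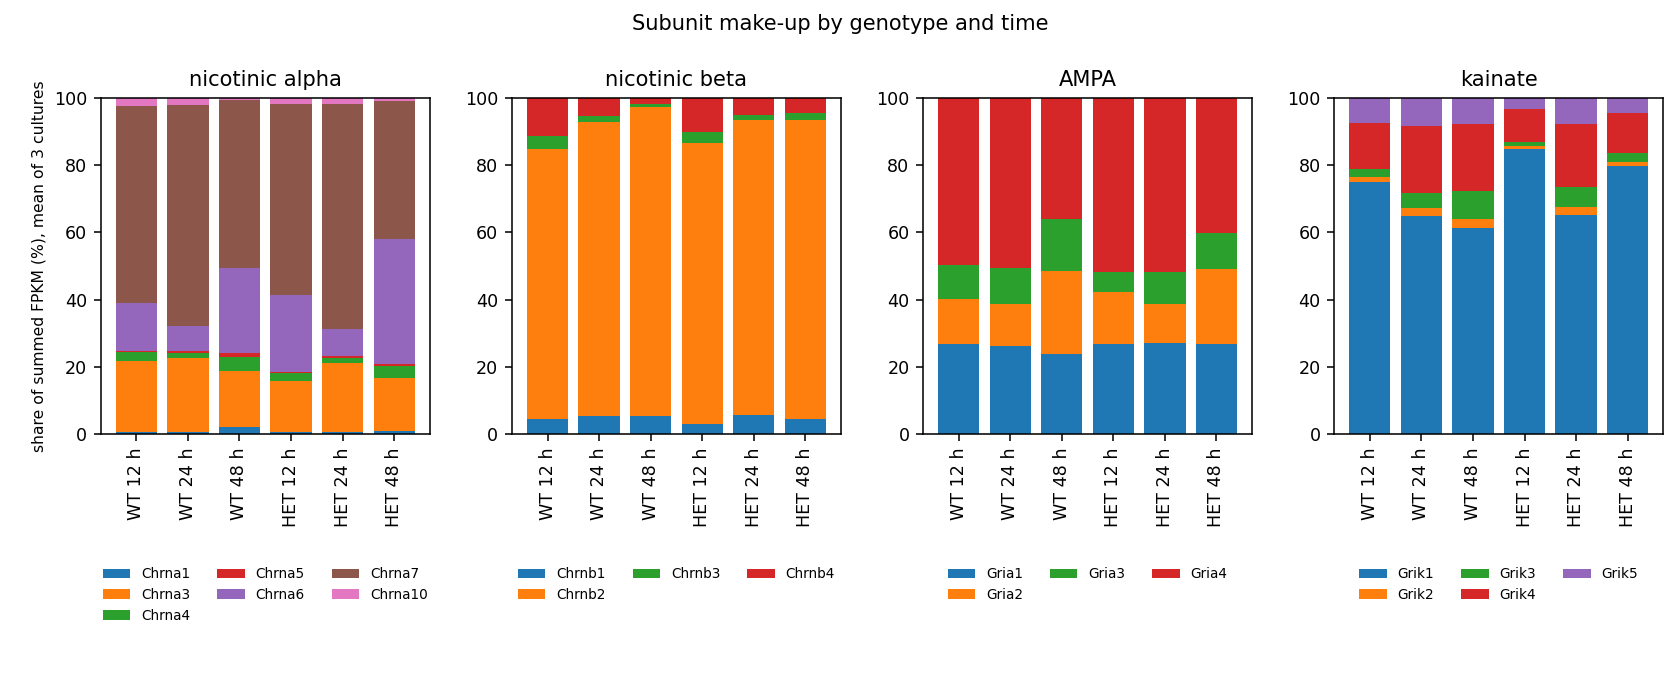
Share of each subunit in the summed FPKM of its family, in percent, stacked for each genotype and time as the mean of 3 cultures. In WT the Chrnb4 part of the nicotinic beta bar goes from 11.3% at 12 h to 1.69% at 48 h, and the Gria4 part of the AMPA bar from 49.6% to 36.1%.

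Genotype was compared at each time. At 12 h no member passed by limma, against 0.00581% of all genes. At an unadjusted p under 0.05 there were 6 members (10.3%) and 8.41% of all genes. The smallest unadjusted p was that of Gria3 (log2 difference HET minus WT, -0.76, SE 0.23), with Grik5 at -0.65 and Grik1 at 0.72, at a limma adjusted p of 0.577. At 24 h no member passed, against 0.00581% of all genes. Unadjusted p was under 0.05 in 3 members (5.17%) and in 1.15% of all genes. Averaged over the 3 times no member passed without the replicate numbers in the model, against 0.0174% of all genes. Of the members, 11 (19%) had an unadjusted p under 0.05, beside 13.5% of all genes. Among the lowest in that average were Gria3 (-0.45, SE 0.13), Grik1 (0.61, SE 0.18), Grin2d (-0.44, SE 0.15) and P2rx2 (0.82, SE 0.30), with limma adjusted p of 0.310 for Gria3 and 0.313 for P2rx2. With the replicate number as a block, Gria3, Grik1 and Grin3a passed in the average (limma adjusted p of 0.0157, 0.0168 and 0.0389). That number paired the cultures weakly or unevenly outside 48 h, and no share of all genes is given for that fit.

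At 48 h no member passed without the replicate numbers in the model, against 0% of all genes, and the unadjusted p was under 0.05 for 19 members (32.8%) and 22% of all genes. The members' median difference was 0.13, beside -0.03 over all genes. Values of HET and WT did not overlap for 14 members, 9 higher and 5 lower in HET, against 24% of all genes (9.57% higher and 14.4% lower). Lowest in adjusted p was Grik1, with 5552, 3284 and 7016 in WT and 13092, 10076 and 12296 in HET (log2 change 1.22, SE 0.31, limma adjusted p = 0.0587). Gabra3 (0.74), Chrnb3 (1.05), Chrnb4 (1.22), Grik3 (-0.91) and P2rx2 (1.60) were among those that followed, at limma adjusted p from 0.0674 to 0.0930. The unblocked result rested on single libraries too: 2 members passed without HET 48 h replicate 1, 2 without HET 48 h replicate 2 and 6 without WT 48 h replicate 3. No share of all genes is given for these fits.

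At 48 h same-numbered HET and WT cultures deviated together (correlations of 0.321, 0.209 and 0.461), so the number was also entered into the model as a block. At the other times these correlations ran from -0.207 to 0.258, so the contrast is a matter of degree. The block was used for the 48 h comparison. With the block 12 members passed, 7 higher and 5 lower in HET, against 12.3% of all genes (5.04% higher and 7.29% lower). Each of the 12 had the same sign in all 3 pairs, but they were selected by a test on these pairs. The shared sign is therefore not separate support. Members that did not pass, such as Chrna7 and Htr3b, also had 1 sign in all 3 pairs. Grik1 differed by 1.24, 1.62 and 0.81 in pairs 1, 2 and 3 (mean 1.22, SE 0.19, limma adjusted p = 0.00278). Gabra3 differed by 0.37, 0.90 and 0.93 (mean 0.74, SE 0.16, limma adjusted p = 0.0146), P2rx2 by 1.54, 1.34 and 1.92 (mean 1.60, SE 0.36, limma adjusted p = 0.0147) and Chrnb3 by 0.59, 1.21 and 1.36 (mean 1.05, SE 0.24, limma adjusted p = 0.0148). Chrnb4 differed by 0.20, 1.76 and 1.71 and Gria1 by 0.36, 0.58 and 0.34. The 5 lower genes were Gabrg1, by -1.01, -0.68 and -1.09 (mean -0.93, SE 0.20, limma adjusted p = 0.0118), Grik3, by -0.63, -0.82 and -1.29 (mean -0.91, SE 0.20, limma adjusted p = 0.0125), P2rx7, by -0.55, -0.39 and -1.38, Grin3a, by -0.32, -0.30 and -0.52, and Gabra2, by -0.22, -0.26 and -0.47. The Chrnb4 difference was small in pair 1 beside those in pairs 2 and 3. At 48 h the summed sensory neuron markers were 2395-2996 FPKM in WT and 2991-3461 in HET, the macrophage markers 42.1-82.2 and 25.1-37.9, and the fibroblast markers 114-165 and 91.0-163.5. Their part in these differences was not tested. With pairs 1 and 2 alone 3 members passed (Grik1, Chrna6 and P2rx5), with pairs 1 and 3 only Grik1, and with pairs 2 and 3 11 passed. For these reduced fits no share of all genes is given, so the swings are not shown to be particular to receptor genes.

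**Figure D5:**
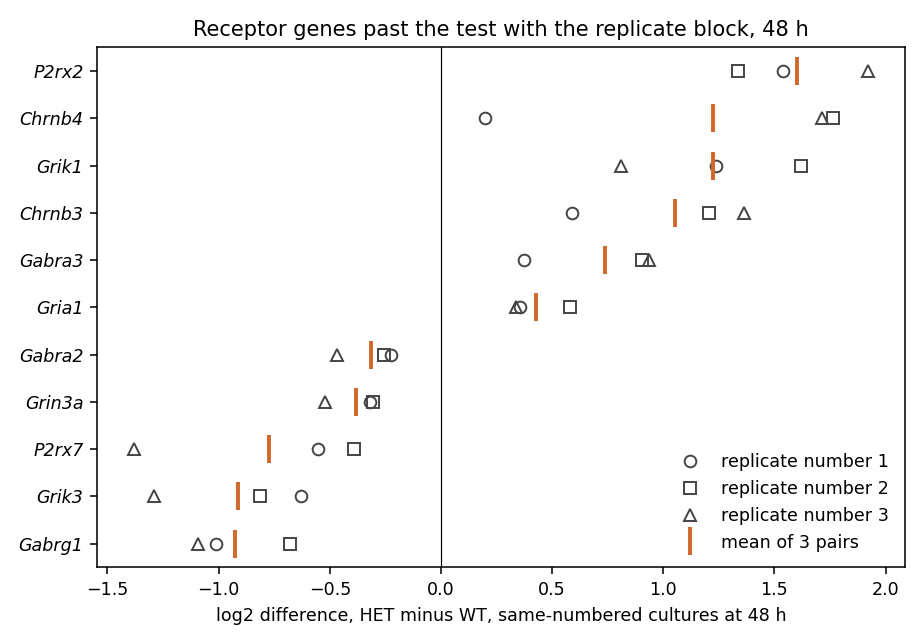
HET minus WT at 48 h on the log2 scale in each of the 3 numbered pairs, for receptor genes past the test with the replicate block, with the mean as a bar. Grik1, Gabra3, P2rx2, Chrnb3, Chrnb4 and Gria1 lie above 0 and Gabrg1, Grik3, P2rx7, Grin3a and Gabra2 below 0 in all pairs.

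The authors' deposited table gave 8 members at a false discovery rate under 0.05 at 48 h, with 7 higher in HET, among them Chrna6, Chrnb3, Chrnb4, Gabra3, Grik1 and P2rx2, and Grik3 lower, against 5.98% of all its genes. At 12 and 24 h the authors' deposited table gave 0 members, against 0.0233% and 0.0116% of all its genes. The HET minus WT comparison at 48 h shares the WT 48 h cultures with the WT time comparison, so the changes are given side by side only. These cultures enter both with opposite signs, so their spread alone tends to give changes of opposite sign. The genes named next passed in WT over time and with the block at 48 h, which adds to this. For Gabra3 the WT change from 12 to 48 h was -1.71 and the HET minus WT difference at 48 h was 0.74. For Chrnb4 these were -2.76 and 1.22, for Gabrg1 1.22 and -0.93, and for P2rx7 1.14 and -0.78.

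Whether the 12 to 48 h change differed between the genotypes was tested directly, as an interaction. No member passed by limma, against 0% of all genes, and 7 members (12.1%) had an unadjusted p under 0.05, beside 8.92% of all genes. Smallest in p were Gabra3 (difference of changes 0.99, SE 0.29), Chrnb3 (1.28, SE 0.42), Grin1 (0.49, SE 0.17) and Chrnb4 (1.42, SE 0.50), with a limma adjusted p of 0.548 for Gabra3. A gene that passed in WT and not in HET is therefore not shown to differ between them.

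Genes that assemble, place and feed these receptors were counted from lists. Of 26 auxiliary subunit and chaperone genes measured, 4 rose and 13 fell in WT from 12 to 48 h, with a median of -0.53. Of all genes 30% rose and 17.1% fell in that comparison, with a median of 0.11, and in HET 10.6% rose and 3.62% fell. The kainate receptor partner Neto2 had 3616 ± 356 at 12 h and 7629 ± 1186 at 48 h (SD, n = 3 each; log2 change 1.07, SE 0.13, limma adjusted p = 3.70e-05). Shisa9, which modulates AMPA receptor desensitization, had 32.01 ± 8.21 at 12 h and 72.5 ± 26.1 at 48 h (SD, n = 3 each; log2 change 1.12, SE 0.29, limma adjusted p = 0.00424), and Cpt1c, an AMPA receptor partner of the endoplasmic reticulum, rose by 0.32. Ly6h, which holds back nicotinic receptor surface delivery, had 1352 ± 339 at 12 h and 254 ± 53.8 at 48 h (SD, n = 3 each; log2 change -2.40, SE 0.28, limma adjusted p = 2.93e-05). The AMPA receptor auxiliary genes Cnih3 and Frrs1l changed by -1.62 and -1.29. In HET 1 of the 26 rose and 7 fell from 12 to 48 h.

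Of 26 anchoring and scaffold genes 6 rose and 11 fell in WT from 12 to 48 h, with a median of -0.15, beside the same 30% and 17.1% of all genes. The AMPA receptor scaffold Grip2 had 106 ± 31.5 at 12 h and 572 ± 244 at 48 h (SD, n = 3 each; log2 change 2.38, SE 0.39, limma adjusted p = 1.80e-04), and Shank2 and Grip1 rose by 1.31 and 0.57. The neuronal pentraxin Nptx1, which clusters AMPA receptors, had 9587 ± 957 at 12 h and 2387 ± 206 at 48 h (SD, n = 3 each; log2 change -2.004, SE 0.19, limma adjusted p = 2.23e-05). Musk, the kinase that clusters muscle nicotinic receptors, and the scaffold Shank1 changed by -2.35 and -1.53. In HET 2 of the 26 rose and 2 fell, beside 10.6% and 3.62% of all genes.

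Of 31 genes of ligand synthesis and transport 5 rose and 11 fell in WT from 12 to 48 h, with a median of -0.52, beside 30% and 17.1% of all genes. The serotonin transporter Slc6a4 had 19.4 ± 15.2 at 12 h and 309 ± 206 at 48 h (SD, n = 3 each; log2 change 4.02, SE 0.48, limma adjusted p = 3.06e-05), the largest of the changes named from these lists. Nt5e, which makes adenosine from AMP, and glutamine synthetase, Glul, rose by 1.36 and 0.59. The glutamate transporters Slc1a3 and Slc1a1 and the GABA transporter Slc6a11 changed by -1.71, -1.65 and -1.53. In HET 2 of the 31 rose and 6 fell, beside 10.6% and 3.62% of all genes. Of the 6 chloride cotransporter genes measured, 1 rose in WT from 12 to 48 h (Slc12a4, 0.59) and none fell. In HET none passed from 12 to 48 h and 2 rose from 12 to 24 h, against the 13.1% of all genes higher there. No gene of these lists passed between genotypes at 48 h by limma without the block.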

How the data were processed

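Total RNA of 18 cultures was measured, 3 in each of 6 groups. Base calling used CASAVA 1.8.2, the genome was mm10 and edgeR was used, per the submitters' processing notes. The aligner, counter, annotation and counting strand are not given in the sources used here. The authors deposited 1 table of 17198 genes with plain adjusted values (signal) per culture, whose scaling is not given, normalized counts (signal, columns summing to nearly the same total), FPKM, log2 fold changes and p-values with false discovery rates. No normalized count was a whole number, so no count model was run and depth is unknown. The deposited values have 15 of the 17 directions of variation that 18 samples allow, so 2 had been removed, by a step that is not given.

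Log2(normalized count + 1) was fitted with limma 3.58.1 (R 4.3.3; 1 coefficient per group, all 18 cultures, trended prior, 12 residual degrees of freedom), with Benjamini-Hochberg adjustment over all genes within each of 11 comparisons, of which 2 were added after the values were seen. A minimum mean of 1 removed 0 genes. Scripts were tested on simulated data. The design had been written for counts or normalized values, and the second was used.

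The receptor genes and all lists were chosen with earlier results of these data known. Every culture's values are given for up to 24 genes past a planned test with the largest time changes and a mean of at least 50 in some group, the highest gene per family by FPKM and the 5 lowest p of the averaged genotype comparison. Chrna5, Gabra2, P2rx4 and Grin3a were added after their values were seen. Some receptor genes are counted in the totals but not reported here by name. From each related list up to 3 genes in each direction are named.

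Deviations of same-numbered HET and WT cultures had correlations of 0.321, 0.209 and 0.461 at 48 h. They were 0.188, 0.0318 and 0.159 at 12 h and 0.109, -0.207 and 0.258 at 24 h. Between times they ran from -0.197 (WT 12 and 24 h, number 2) to 0.357 (HET 12 and 24 h, number 1). The contrast with 48 h is a matter of degree, since some values outside 48 h exceeded 0.209. Alternatives were another pseudocount (0.1), a minimum mean of 5, no filter, the plain adjusted values, quantile normalization, only the groups compared, the 2 removed directions as covariates, the replicate block, and leaving out each culture. Positions are from GENCODE M21 (GRCm38), where all 58 genes matched, and promoters from RefSeq (GRCm38.p6).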

Additional observations from a re-analysis of the deposited data

How the results depend on the processing

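No call of a single gene changed sign. The members' median did for HET 48 minus 12 h (0.05; -0.05 in the plain adjusted values and -0.07 with quantile normalization), HET 48 minus 24 h (0.02; -0.02 and -0.01) and, in the plain adjusted values, the averaged genotype comparison (-0.013; 0.0013). Another pseudocount, a minimum mean of 5 (35 genes removed) and no filter kept all 78 calls of single genes. Using only the groups compared lost 19 of the 78, the plain adjusted values 3 (Chrna1 and Chrnb2 in WT and Grin3a in HET, 12 to 48 h), quantile normalization 2, the removed directions as covariates 7 and the replicate block 6. HET minus WT at 48 h had 0 calls, 1 with quantile normalization and 12 with the replicate block (3, 1 and 11 with pair 3, 2 or 1 left out, which was chosen after seeing the data). The averaged genotype comparison had 0, and 3 with the block (Grik1 higher, Gria3 and Grin3a lower). WT 24 minus 12 h had 1, 5 with only those groups, 5 with the covariates and 9 with the block. HET 48 minus 12 h had 11, 0 with only those groups and 18 with the block. HET 48 minus 24 h had 3, 0 with only those groups, 5 with quantile normalization, 6 with the covariates and 12 with the block. Leaving out 1 culture at a time gave 0 to 6 calls for HET minus WT at 48 h, 0 to 1 for WT 24 minus 12 h, 24 to 27 for WT 48 minus 12 h, 6 to 18 for HET 24 minus 12 h, 0 to 18 for HET 48 minus 12 h, 10 to 20 for WT 48 minus 24 h and 0 to 9 for HET 48 minus 24 h. Among these alternatives the share of all genes is given only for the block at 48 h, so the swings are not shown to be particular to receptor genes. Their cause was not tested. Outside 48 h the pairing of cultures by number was weak or mixed. Depth is unknown, so precision rests on the spread of 3 cultures.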

Other observations

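Several other receptor genes lie beside another one and were read together from 12 to 48 h in WT. On chromosome X, Gabra3 fell (-1.71) while Gabre (-0.78, limma adjusted p = 0.0831) and Gabrq (-0.15, 0.827) did not pass. Gria2 (0.25) and Glrb (-0.09), which lie 40763 bases apart on chromosome 3, did not pass either. These are values of single genes, and no test of neighbourhood was made.

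The authors' deposited table, at a false discovery rate under 0.05, gave 8 members higher and 19 lower from 12 to 48 h in WT, against 45.4% of all its genes in either direction, and 3 higher and 10 lower in HET, against 15.5%. From 12 to 24 h the authors' deposited table gave 2 higher and 6 lower in WT, against 4.97% of all its genes, and 4 higher and 14 lower in HET, against 18.3%.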
